A study of Mus musculus with 8 samples.

Results

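Primary hepatocytes were compared with embryonic fibroblasts, the target and the starting cell type of a study that converted fibroblasts into hepatocyte-like lines by retroviral delivery of liver transcription factors. The 5 arrays of these groups were taken from the 8 arrays of the series by their titles, and the 3 arrays of converted lines entered none of the values below unless stated. Mouse embryonic fibroblasts (MEFs), mesenchymal cells grown from embryos, came from C57/B6 embryos at embryonic day 13.5 and gave 2 arrays. The label of MEF 1 adds that the head and inner organs had been removed, and the label of MEF 2 does not say so. Primary hepatocytes (PH) came from livers of male C57/B6 mice aged 8 to 10 weeks, were freed with collagenase and then cultured in a medium called Hep medium, and gave 3 arrays. As given for the converted lines, that medium holds serum, dexamethasone, nicotinamide, insulin, transferrin, selenium and the growth factors FGF4, HGF and EGF. How long the hepatocytes had been in culture is not given in the sources used here. The PH array whose title has no number is called PH 3. Nothing in the labels says that arrays of a group were separate animals or cultures, so the p-values reflect the spread among these arrays alone, and that spread may be technical. With 5 arrays the precision is limited throughout.

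Hepatocytes are the epithelial cells of the liver. They secrete most plasma proteins, make and clear lipoproteins, store and release glucose, detoxify ammonia in the urea cycle, and oxidise and conjugate drugs, steroids and bile acids. A network of liver transcription factors, among them the Hnf, Foxa, Cebp and Onecut families, maintains this program, and it is known that parts of it weaken when hepatocytes leave the liver and attach to plastic. Fibroblasts are mesenchymal cells that make collagens and other extracellular matrix, contract through actin and myosin, and keep Hox and other patterning genes active according to where in the body they arose.

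Each value is a log2 intensity of 1 probe set, a set of short probes against a transcript, so a difference of 1 is 2-fold. A gene was represented by its brightest probe set, and 17097 genes were tested in 1 fit. Levels of different genes are not compared, because probe sets differ in brightness. PH 3 lay on a raised level, with a median over all probe sets of 5.06 against 4.23 to 4.24 in the other 4 arrays, and 93.2% of genes read higher in PH 3 than the mean of PH 1 and PH 2. Its nonspecific control probe sets were raised too, their 95th percentile being 4.44 against 3.19 to 3.34 elsewhere. PH 1 and PH 2 were almost alike, their difference having an SD over genes of 0.159, against 0.570 for the MEF arrays. The median difference over all genes was therefore 0.25 as deposited, 0.01 without PH 3 and -0.03 after array medians were subtracted. Differences below are as deposited, and for most gene lists the counts without PH 3 are given as well.

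A gene passed when its adjusted p (limma, Benjamini-Hochberg over all 17097 genes) was under 0.05 and its difference was at least 1. In PH 622 genes were higher, 3.64% of those tested, and 476 were lower, 2.78%. Without PH 3 the numbers were 736 (4.3%) and 739 (4.32%), with 548 and 420 of the genes passing both ways. In all 1098 genes that passed the PH and MEF arrays did not overlap, as was so for 38% of all genes. Without MEF 1 the numbers were 356 and 296, and without MEF 2 they were 315 and 387, so each MEF array weighs on the counts. The share of higher genes was 56.6% as deposited, 49.9% without PH 3, 47.7% after quantile normalization and 43.5% after array medians were subtracted, so the balance of the directions moved with the level given to PH 3. No gene was called in opposite directions under any of the other settings tried. A difference of at least 4, which is 16-fold, was reached by 102 of the genes that were higher and 95 of those that were lower.

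The labels were checked against defining markers. Of 9 measured hepatocyte markers 7 were higher in PH and none was lower, and of 11 fibroblast markers 9 were lower in PH and none was higher. The same 7 hepatocyte markers passed without PH 3, against 7 fibroblast markers. The 2 hepatocyte markers that did not pass were Asgr1, a subunit of the asialoglycoprotein receptor, and Tat, tyrosine aminotransferase. Asgr1 read 3.27 and 3.25 in the MEF arrays and 3.26, 3.16 and 4.07 in PH 1, PH 2 and PH 3, near the level of the nonspecific controls in each array. Tat read 3.94 and 3.75 in the MEF arrays and 4.11, 4.07 and 4.65 in the PH arrays. The PH and MEF arrays overlapped for Asgr1 and did not for Tat. The 2 fibroblast markers that did not pass, Col1a2 (6.31 and 3.66 in the MEF arrays against 2.96, 2.98 and 3.55) and Pdgfra (7.05 and 5.21 against 3.79, 3.81 and 4.63), were lower in every PH array but differed between the MEF arrays.

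**Figure D1:**
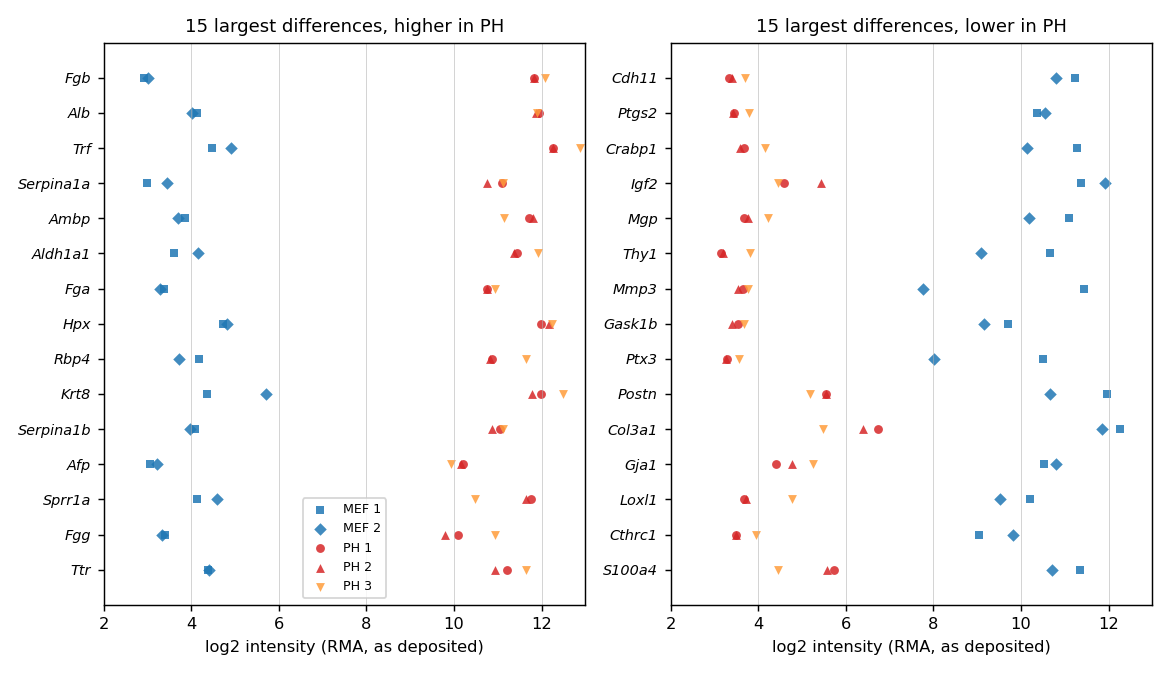
Log2 intensity (horizontal axis) of the 15 genes with the largest positive and the 15 with the largest negative difference, in each of the 5 arrays; squares and diamonds are MEF 1 and MEF 2, circles, upward and downward triangles are PH 1, PH 2 and PH 3. Every gene has a gap between the groups, a condition for being named; the MEF arrays lie furthest apart for Mmp3 (11.45 and 7.76).

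Proteins that the liver secretes into plasma led the genes higher in PH. The beta chain of fibrinogen, Fgb, the protein that polymerises into clots, read 2.93 and 3.01 in the MEF arrays and 11.83, 11.83 and 12.08 in the PH arrays, a difference of 8.95 ± 0.30 (SE, n = 3 and 2; adjusted p = 7.08e-06). Both MEF values of Fgb lie under the 95th percentile of the nonspecific controls (3.23 and 3.34 in MEF 1 and 2), so background limits the size of its difference and its rank. The same holds in the MEF arrays for Afp, Saa2, Prox1 and Cyp3a13, and in PH 1 and PH 2 for Hoxd10 and Ror2. Albumin, Alb, the main carrier protein of plasma, read 4.12 and 4.01 in MEF 1 and 2 and 11.94, 11.87 and 11.90 in PH, a difference of 7.84 ± 0.30 (adjusted p = 7.08e-06). For both genes the 3 PH arrays lay within 0.3 of each other and far above either MEF array. The other genes among the 15 largest differences were the carriers Trf (iron, 7.78), Hpx (heme, 7.36), Rbp4 (retinol, 7.16) and Ttr (thyroid hormone, 6.87), the fibrinogen chains Fga (7.48) and Fgg (6.91), the protease inhibitors Serpina1a (7.77) and Serpina1b (6.99), Ambp (7.77), which is cleaved into a plasma carrier and a protease inhibitor, the fetal plasma protein Afp (6.96), the retinaldehyde dehydrogenase Aldh1a1 (7.70), the keratin Krt8 (7.06) and Sprr1a (6.93), a cornified envelope protein better known from skin and from injured nerve. The Serpina1 genes are near-identical copies read by probe sets that can bind several transcripts, so their values cannot be assigned to a single copy. Afp was read by 5 probe sets, whose differences went down to 0.36.

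Of 18 measured plasma carriers 15 were higher in PH, none was lower, and the median difference was 4.43, against 0.25 over all genes. Without PH 3 the count was again 15. Selenop, which carries selenium, was also well above background in MEFs (8.57 and 7.66 against 11.95, 11.83 and 12.44). Its difference was 3.96. Serpina6, the corticosteroid carrier, did not pass and read 3.31 and 3.25 in PH 1 and 2 against 3.28 and 3.30 in the MEF arrays.

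The promoters of the plasma protein genes were searched for letters of factor motifs, because these genes were high together. RefSeq promoters of build GRCm38.p6 matched 13605 of the tested genes by symbol, 484 of the genes higher in PH and 355 of those lower. In the 250 bases before the start, on both strands, the Hnf1 motif GTTAATNAT was found in 2.27% of 660 promoters of genes higher in PH. It was in 0.438% of 457 promoters of genes lower in PH, which is 2 promoters. The share was 0.568% of 17065 promoters of tested genes and 0.737% of all 32851 promoters. Among promoters of plasma carrier, clotting, complement, acute phase and lipoprotein genes higher in PH, 6 of 47 held it (12.8%). The matches are shown for the 6 genes of any list, or of none, that held it and differed by at least 6, to show how the letters vary. Capitals mark the motif, and each stretch is written 5′ to 3′ on the strand of its gene:
Alb: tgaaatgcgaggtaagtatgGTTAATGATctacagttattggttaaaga
Afp: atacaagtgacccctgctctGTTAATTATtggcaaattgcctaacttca
Fga: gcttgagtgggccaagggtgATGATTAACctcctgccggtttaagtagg
Cp: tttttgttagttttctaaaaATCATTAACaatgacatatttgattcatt
Igfbp1: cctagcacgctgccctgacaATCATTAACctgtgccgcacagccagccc
Tm4sf4: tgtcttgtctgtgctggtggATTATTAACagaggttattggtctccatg

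Those of Alb, at chr5:90460818-90460866, and Afp, at chr5:90490589-90490637, carry the motif on the strand of the gene, 32 and 105 bases before the start. The others carry it on the opposite strand, so that the capitals read as its reverse complement: Fga at chr3:83026087-83026135, Cp at chr3:19956837-19956885, Igfbp1 at chr11:7197708-7197756 and Tm4sf4 at chr3:57425278-57425326. Afm, a vitamin E carrier and relative of albumin whose gene lies next to theirs, also held a match and differed by 1.48. The CAAAGTCCA motif of Hnf4a was in 0.152% of promoters of genes higher in PH, which is 1 promoter. It was in 0.428% of promoters of tested genes and in 0.384% of all. The palindrome TTGCGCAA of the Cebp factors was in 0.303%, against 0.211% of promoters of tested genes and 0.164% of all. TATAAA was in 10.5%, against 9.01% of promoters of tested genes and 12.4% of all. In promoters of genes lower in PH the shares of the Hnf4a, Cebp and TATAAA motifs were 0.438%, 0.438% and 12.7%. The Hnf4a and Cebp shares there rest on 2 promoters each, as does the Cebp share of genes higher in PH. The serum response core CCATATTAG was in 0.152% of promoters of genes higher in PH, which is 1 promoter, and in none of the 457 promoters of genes lower in PH. It was in 0.0586% of promoters of tested genes and in 0.0974% of all. The 47 promoters of plasma protein genes higher in PH held TATAAA in 9 (19.1%) and the Cebp motif in 1 (2.13%). None of them held the Hnf4a motif or the serum response core. A match is a description of these letters and does not show that a factor binds there.

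Among 21 clotting proteins 13 were higher in PH and none was lower, with a median of 2.21. Thrombin, F2, read 4.71 and 5.09 in the MEF arrays and 9.33, 9.64 and 8.76 in PH, and the adhesive protein vitronectin, Vtn, read 3.29 and 3.42 against 10.38, 10.08 and 10.19. The groups were far apart for both. The serine protease factors did not all follow. F7 read 4.01 and 3.85 in MEFs and 4.41, 4.31 and 5.66 in PH, F10 read 3.43 and 3.54 against 3.81, 3.79 and 5.28, and the clotting inhibitor antithrombin, Serpinc1, read 3.55 and 3.41 against 3.93, 3.89 and 5.22. In these 3 genes PH 1 and PH 2 stood less than 0.5 above MEF 1, and none passed. The clotting count was 13 without PH 3, 8 without MEF 1 and 8 without MEF 2.

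Complement and acute phase proteins were higher in PH as groups of 7 in 19 and 14 in 18, with none lower and medians of 1.33 and 4.39. Cfi, which inactivates complement, read 4.41 and 4.66 in MEFs against 11.30, 11.05 and 10.68, and the lectin Mbl2, which starts complement on microbial sugars, read 3.49 and 3.47 against 8.79, 9.10 and 10.53. Of the terminal components C9 was higher (2.21, adjusted p = 0.00244). Hc, C6, C8a, C8b and C8g did not pass, their differences lying between 0.38 and 0.955. Hepcidin, Hamp, the hormone that limits iron uptake, read 3.57 and 3.57 in MEFs and 7.48, 9.02 and 11.40 in PH, a difference of 5.73 ± 0.91 (adjusted p = 0.00523). The serum amyloid gene Saa2 read 2.96 and 3.03 against 7.64, 9.59 and 8.72. For these genes the PH arrays were apart from MEFs but also from each other, hepcidin being highest in PH 3 and Saa2 in PH 2.

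Several acute phase and complement genes were high in MEF 1 and near background in MEF 2. Saa3, an amyloid protein that other tissues make too, read 12.12 in MEF 1, 3.78 in MEF 2 and 10.84, 11.80 and 11.83 in PH. The iron-binding Lcn2 read 9.99 and 3.25 in the MEF arrays against 11.81, 12.21 and 12.63, and haptoglobin, Hp, which binds free hemoglobin, read 9.37 and 3.27 against 11.85, 12.15 and 12.25. The complement protease C1s1 read 9.04 and 4.30 against 8.58, 9.13 and 9.69. Saa3, Lcn2 and C1s1 did not pass, and Hp passed with PH 3 (adjusted p = 0.0405) and not without it (adjusted p = 0.22). Cp, also listed with the plasma carriers, read 7.43 and 4.02 in the MEF arrays against 12.05, 12.17 and 12.26. Its call (adjusted p = 0.00134) was likewise lost without PH 3 (adjusted p = 0.0581). The complement count was 7 without PH 3, 9 without MEF 1 and 5 without MEF 2. The acute phase count was 10 without PH 3, 15 without MEF 1 and 13 without MEF 2.

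**Figure D2:**
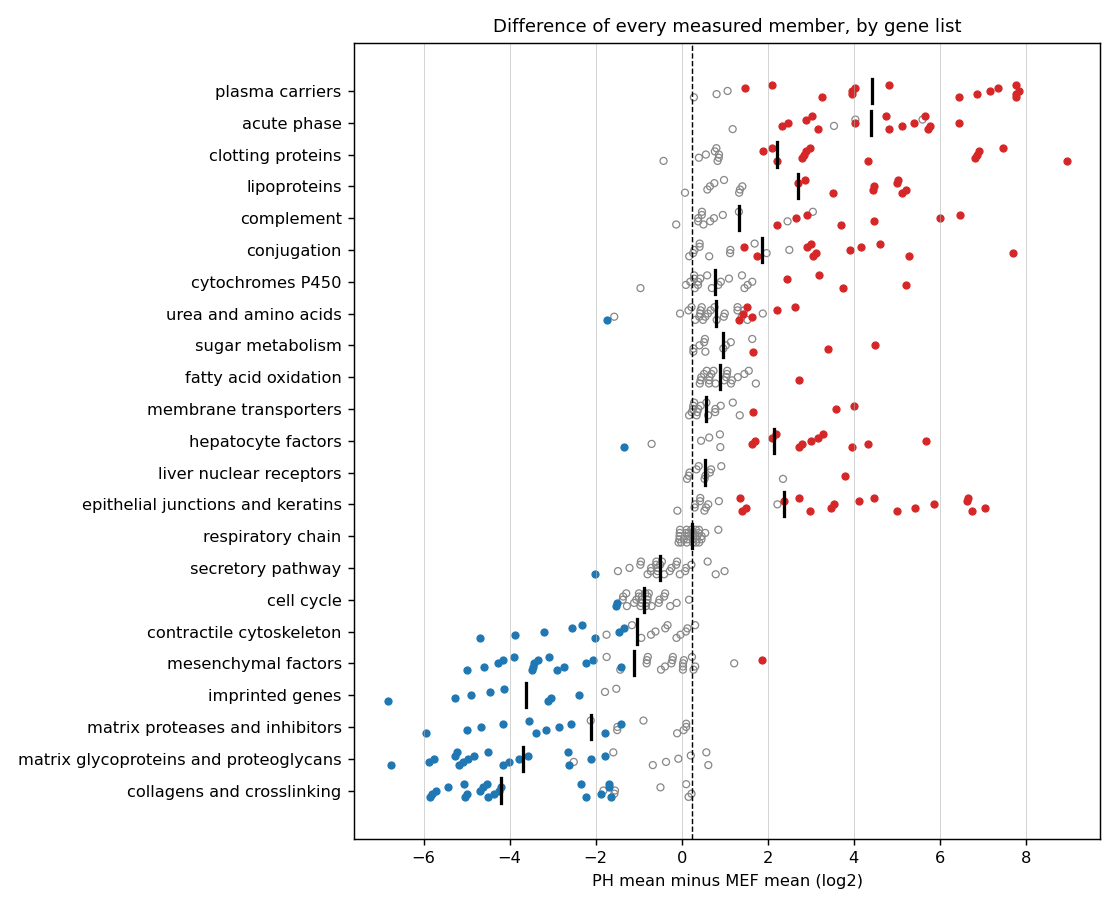
Difference between the PH and MEF means (log2, horizontal axis) of every measured member of 23 gene lists; filled red points were higher and filled blue points lower in PH with a pass of the test, open points did not pass, black bars are list medians and the dashed line is the median over all genes, 0.25. Plasma carriers and acute phase proteins lie furthest to the right and collagens and matrix glycoproteins furthest to the left, while the respiratory chain members crowd around the dashed line.

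Apolipoproteins and their loading proteins were higher in 9 of 17, with none lower and a median of 2.70, and in 10 without PH 3. Apoa1, which forms the shell of high-density lipoprotein, read 5.30 and 4.29 in MEFs and 10.45, 10.24 and 9.35 in PH, a difference of 5.22 ± 0.45 (adjusted p = 0.000179). Apoc2, which activates lipoprotein lipase, read 4.17 and 4.19 against 9.06, 9.09 and 9.76. Both were clear of the MEF arrays in every PH array. Apob, the scaffold of very-low-density lipoprotein, read 3.96 and 4.23 against 5.17, 5.33 and 6.01 and did not pass with PH 3 (1.41, adjusted p = 0.0551), but passed without it. Apoe, which takes remnants to their receptors, was high in MEF 2 (7.46) and not in MEF 1 (4.15), and its call at 5.00 (adjusted p = 0.00536) was lost without PH 3 (adjusted p = 0.099).

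Liver transcription factors were mostly higher in PH, with 12 of 18 higher, 1 lower and a median of 2.14, and 11 higher and 1 lower without PH 3. Hhex, a homeodomain factor of early liver, read 4.35 and 4.44 in MEFs and 10.15, 10.06 and 10.03 in PH, a difference of 5.68 ± 0.30 (adjusted p = 1.66e-05). Hnf4a, a nuclear receptor at the centre of the hepatocyte network, read 5.65 and 5.62 against 9.54, 9.48 and 9.78 (3.97 ± 0.30). The pioneer factors Foxa1 (4.33 ± 0.63), Foxa2 (3.28) and Foxa3 (2.73) and the factors Onecut1 (3.17), Prox1 (2.95 and 3.19 in MEFs against 5.49, 5.68 and 7.05), Nr5a2 (2.79), Cebpa (2.18) and Onecut2 (2.10) passed as well. All of these 10 genes read higher in each PH array than in either MEF array. The PH arrays agreed within 0.3 for Hhex and Hnf4a, whereas Foxa1 was at 9.47 in PH 3 and at 7.35 and 7.18 in PH 1 and 2. Other probe sets of Hnf4a gave differences of 0.32, 1.48 and 5.98.

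Some liver factors did not separate the cell types. Cebpb, which drives acute phase genes, was high in all arrays (10.81 and 9.25 in MEFs, 10.49, 10.56 and 10.39 in PH). Gata4, a factor of liver and heart, read 4.12 and 4.15 against 4.47, 4.46 and 5.39. Tbx3, a T-box factor, was the member that was lower in PH, by 1.35 (adjusted p = 0.0363), a call lost without MEF 1, without MEF 2 and after quantile normalization. Of 12 nuclear receptors of liver metabolism only the bile acid receptor Nr1h4 passed, at 3.67 and 3.68 in MEFs against 7.44, 7.35 and 7.59 in PH (3.79 ± 0.30), and the count was again 1 without PH 3. The xenobiotic receptors Nr1i2 (pregnane X receptor) and Nr1i3 (constitutive androstane receptor) read 4.43 and 4.51, and 3.49 and 3.37, in PH 1 and 2, against 4.18 and 4.18, and 3.53 and 3.29, in MEFs. The other probe set of Nr1i2 gave a difference of 1.23 as deposited, against 0.68 for the one used. The fatty acid receptor Ppara read 3.94 and 3.78 against 3.46 and 3.52. Without PH 3, 10 of the 12 receptors lay within 0.5 of MEFs, as did 73.8% of all genes.

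**Figure D3:**
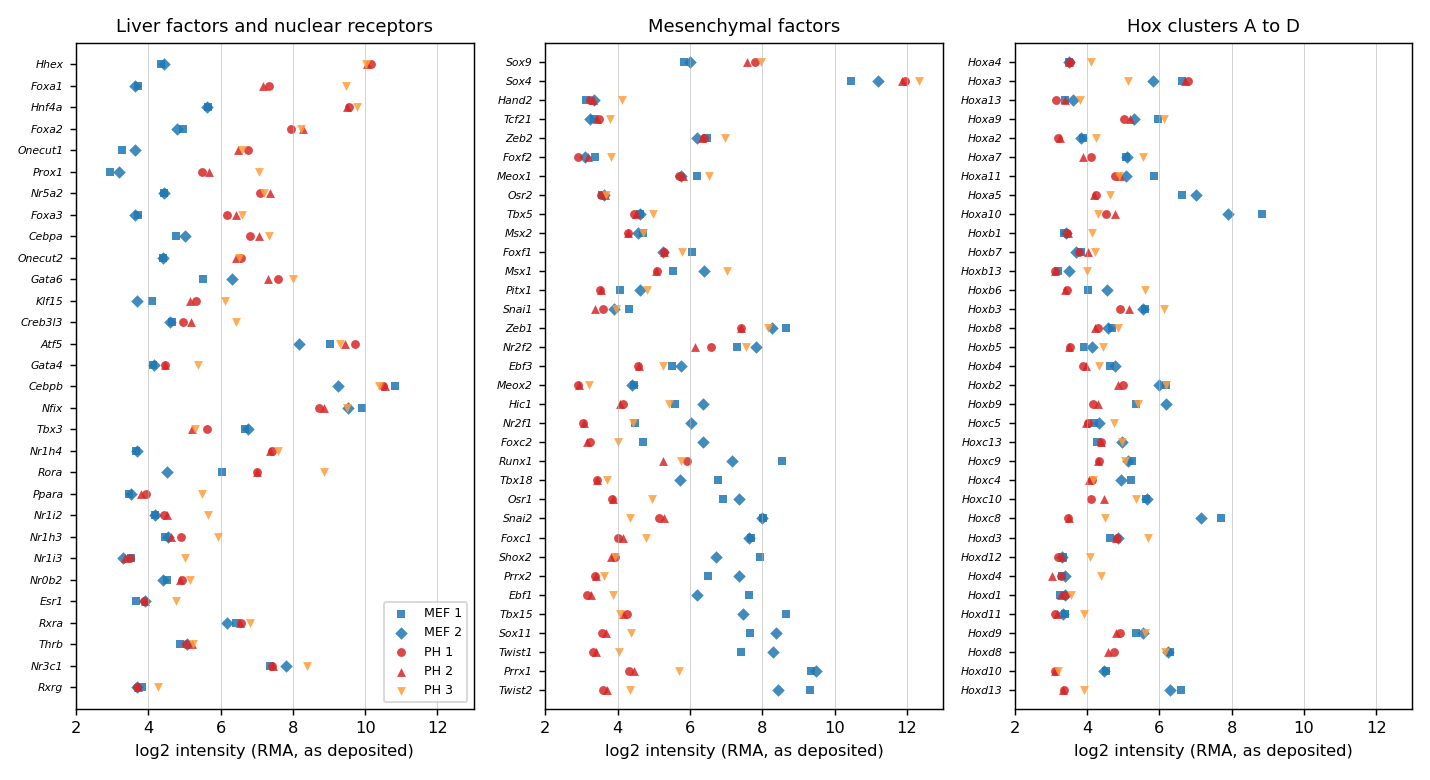
Log2 intensity (horizontal axis) of liver transcription factors and nuclear receptors, mesenchymal factors and Hox genes in each of the 5 arrays, with the array symbols given in the key. Hhex (10.03 to 10.15 in PH) and Hnf4a stand to the right of both MEF arrays; Twist2 and Prrx1 stand to the left; most Hox genes read under 6 in every array.

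Metabolic enzymes were divided between genes that passed and genes that did not. Of 22 cytochromes P450, enzymes that oxidise drugs, steroids and fatty acids, 4 were higher in PH, none was lower, and the median was 0.78. Cyp39a1, an oxysterol hydroxylase, read 4.42 and 3.80 in MEFs and 9.04, 8.74 and 10.21 in PH (5.22 ± 0.47, adjusted p = 0.000221), and Cyp4v3 (3.76), Cyp27a1 (3.18), a mitochondrial sterol hydroxylase, and Cyp3a13 (2.44) passed too. The abundant forms of adult liver did not. Cyp2e1, which oxidises ethanol, read 5.15 and 5.17 in MEFs and 5.49, 5.48 and 6.28 in PH, Cyp2c29 read 5.95 and 6.01 against 6.04, 6.20 and 6.85, and Cyp7a1, the rate-limiting enzyme of bile acid synthesis, read 4.19 and 4.29 against 4.22, 4.14 and 4.64. PH 1 and PH 2 thus lay within 0.5 of the MEF mean for these 3 enzymes. The mean of both did so for 13 of the 22, which is 59.1%, against 73.8% of all genes. Without PH 3 the count was 7.

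Some drug-metabolising genes were read much higher in PH 3 than in PH 1 and PH 2. Cyp3a11, the main drug-oxidising form, read 4.66 and 4.75 in MEFs, 4.83 and 5.03 in PH 1 and 2 and 8.63 in PH 3. Cyp1a2 read 3.82 in both PH 1 and PH 2 and 6.79 in PH 3, and Cyp1a1, which aryl hydrocarbons induce, read 4.22, 3.99 and 9.14. These values in PH 3 exceed the raised level of that array, the differences after subtraction of array medians being 2.87 for Cyp3a11 and 4.20 for Cyp1a1. None of the 3 genes passed between PH and MEF. The 8 largest such differences also held Aldh1a7 (3.68) and the sulfotransferase Sult1d1 (2.95), with Trim30d, Fam107a, Robo1 and Pxylp1. Over the lists the median of this difference was 0.09 for the cytochromes P450 and -0.14 for the conjugating enzymes, so the lists as wholes did not shift with these genes.

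Conjugating and related enzymes were higher in 11 of 22, with none lower and a median of 1.86, and again in 11 without PH 3. Ugt2b34, a glucuronosyltransferase, read 4.23 and 4.59 in MEFs and 9.99, 10.04 and 9.04 in PH (5.28 ± 0.39). The epoxide hydrolase Ephx1 and the glutathione transferase Gstp1, which protects against electrophiles in many cells, were already bright in MEFs (9.45 and 8.81, and 10.57 and 10.73) and differed by 1.75 and 1.45. The carboxylesterases Ces1d, Ces1f and Ces1g did not pass, with PH 1 and PH 2 between 3.15 and 3.46. Conjugating enzymes were therefore mixed, as many not passing as passing.

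Enzymes of the urea cycle and amino acid breakdown were higher in 6 of 30, lower in 1, and had a median of 0.79, and without PH 3 the numbers were 7 and 1. Cps1, the entry enzyme of the urea cycle, read 4.71 and 4.96 in MEFs and 6.45, 6.51 and 8.20 in PH (2.21 ± 0.53, adjusted p = 0.0419). The next enzymes along the cycle were uneven. Otc read 3.35 and 3.35 against 3.68, 3.53 and 4.48, Ass1 was brighter in MEFs (7.81 and 6.02) than in PH 1 and 2 (4.56 and 4.70) with 6.77 in PH 3, and Asl read 5.64 and 5.32 against 6.94, 7.01 and 7.37. Of these 3 only Asl passed, at 1.62 ± 0.32 (adjusted p = 0.0176). Arginase, Arg1, which releases urea, read 3.04 and 3.27 against 4.79, 4.07 and 4.80 (1.39, adjusted p = 0.0531). Oat, an ornithine aminotransferase of the cells around the central vein, was the enzyme lower in PH, by 1.74 (adjusted p = 0.0145), a call lost without MEF 1. Without MEF 2 no enzyme of this list was higher, and without MEF 1 there were 2, so the count rests on having both MEF arrays.

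Of 13 genes of sugar metabolism 3 were higher and none was lower, and again 3 without PH 3. Fbp1, of gluconeogenesis, read 3.59 and 3.96 in MEFs and 6.42, 7.39 and 7.75 in PH (3.41 ± 0.43), the glycogen phosphorylase Pygl differed by 4.49 (adjusted p = 0.00379, and 0.076 without PH 3) and the glycogen branching enzyme Gbe1 by 1.67. Pck1, the enzyme that commits carbon to gluconeogenesis, read 3.90 and 3.96 in PH 1 and 2 against 3.93 and 3.90 in MEFs. G6pc, which releases free glucose, read 3.83 and 3.71 against 3.42 and 3.45. The glucose transporter Slc2a2 was at 4.66 and 4.78 in PH 1 and 2 and at 7.68 in PH 3, and did not pass. Of the gluconeogenic enzymes in the list, Fbp1 was thus above the fibroblast level and the enzymes before and after it did not pass.

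Fatty acid oxidation and peroxisomal genes passed in 1 of 22, catalase (Cat), which breaks down hydrogen peroxide, at 8.88 and 9.09 in MEFs against 11.53, 11.54 and 12.10 in PH (2.74 ± 0.33). The median of the list was 0.89, and 0.59 without PH 3, when 3 passed. Fabp1, the fatty acid binding protein of liver, read 3.24 and 3.18 against 3.38, 3.39 and 4.17. Subunits of the respiratory chain, active in both cell types, passed in none of 30, with a median of 0.24. Without PH 3, 28 of the 30 lay within 0.5 of MEFs, which is 93.3%, against 73.8% of all genes. Sterol and fat synthesis passed in none of 20, with a median of -0.39. In each of its genes MEF 1 read higher than MEF 2, as with Idi1, an enzyme of isoprenoid synthesis (8.59 and 5.40, against 6.47, 6.69 and 7.39 in PH). Elovl6, a fatty acid elongase, passed as lower without PH 3 and after quantile normalization.

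Membrane transporters passed in 3 of 19, with a median of 0.57, and in 3 without PH 3. The organic anion pumps Abcc3, of the blood-facing membrane, and Abcc2, of the bile-facing membrane, read 4.81 and 4.98 against 8.73, 9.34 and 8.65, and 4.28 and 4.39 against 8.28, 8.15 and 7.38. The third was the glutamine transporter Slc38a3 (1.67). The bile acid importer Slc10a1 read 3.74 and 3.72 in MEFs and 3.88, 3.75 and 4.43 in PH, and the bile salt export pump Abcb11 read 3.60 and 3.69 against 3.62, 3.54 and 5.10. Neither the importer nor the exporter of bile salts passed, and PH 1 and PH 2 lay within 0.2 of the MEF arrays. Of 9 periportal genes 2 were higher, and 1 when either MEF array was left out. Of 11 pericentral genes 1 was higher and 1 lower, and none was lower without MEF 1. None of 11 genes whose liver level differs between the sexes passed.

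**Figure D4:**
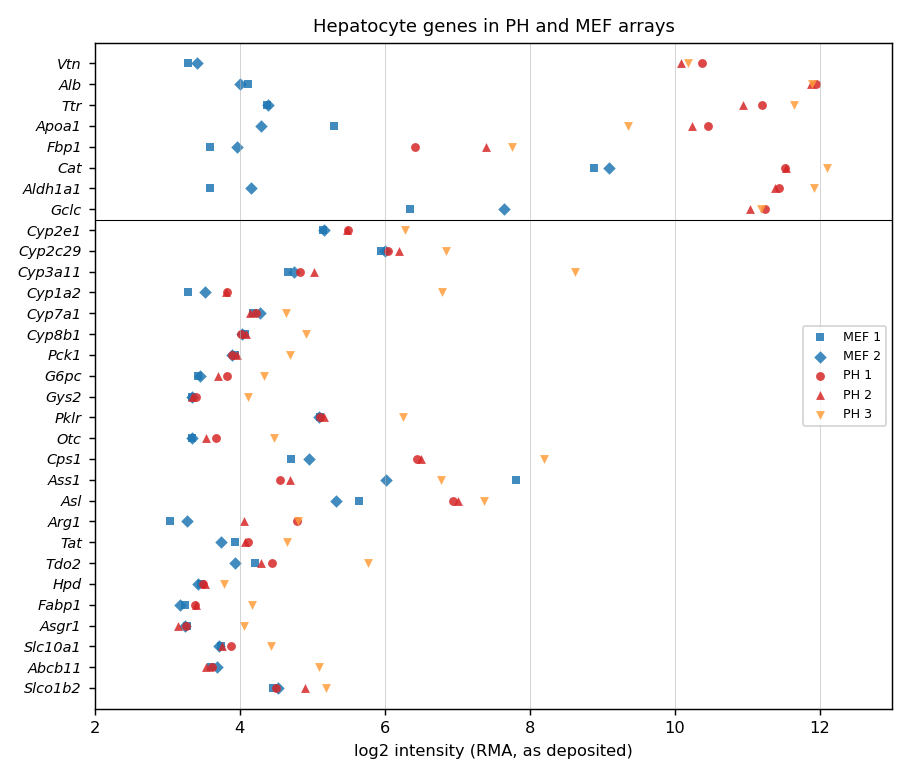
Log2 intensity (horizontal axis) in each of the 5 arrays of 8 hepatocyte genes that passed (above the line) and of 23 genes of adult liver functions (below it), chosen after their values were seen to show the 2 patterns; symbols are given in the key. Above the line the groups are apart; below it PH 1 and PH 2 mostly lie beside the MEF arrays, with Cps1, Asl and Arg1 to the right of them and Ass1 to the left, and PH 3 is further right.

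Stress and growth genes of the hepatocytes differed as well. Of 14 genes of the oxidative stress response 4 were higher and none was lower, with 5 higher without PH 3 and 2 without MEF 1. Osgin1, an oxidative stress-induced growth inhibitor, read 4.12 and 4.13 in MEFs and 10.66, 10.59 and 9.18 in PH (6.02 ± 0.47, adjusted p = 0.000113), and Gclc, which catalyses the first step of glutathione synthesis, read 6.34 and 7.65 against 11.25, 11.03 and 11.18. The glutathione enzymes Gclm (2.05) and Gsr (2.59) passed too. Nqo1, a quinone reductase controlled by the same stress factor, did not, at 4.08 and 4.15 in PH 1 and 2 against 4.60 and 6.92. Of 17 immediate early and stress genes 3 passed as higher, namely Dusp1, Gadd45a and Junb. Without PH 3 or without MEF 1 there was 1. Junb, a partner of Fos in the AP-1 complex, differed by 1.40 (adjusted p = 0.0473) and also passed without PH 3, but its call was lost when any other array was left out (adjusted p = 0.127 to 0.36) and after quantile normalization (adjusted p = 0.246). The level of Fos in MEF 1 (5.50) and MEF 2 (9.10) lay on either side of PH 1 and 2 (7.98 and 8.36).

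Epithelial junction and keratin genes were higher in 17 of 27, with none lower and a median of 2.38, and in 18 without PH 3. Krt8 and Krt18, the keratin pair of hepatocytes, read 4.35 and 5.71, and 3.80 and 6.39, in MEFs, against 11.99, 11.78 and 12.48, and 11.76, 11.55 and 12.24, in PH. E-cadherin, Cdh1, read 3.28 and 3.52 against 8.93, 9.24 and 9.63 (5.87 ± 0.34), and the tight junction protein Cldn2 read 3.98 and 3.95 against 10.53, 10.47 and 10.85 (6.65 ± 0.31). Desmosome proteins passed as well, with Dsg2 at 6.64 and Dsp at 5.01. Gjb1, the main gap junction protein of hepatocytes, read 4.20 and 4.22 against 4.78, 4.77 and 4.34 and did not pass, and neither did Cldn1, a tight junction protein of liver. Of 11 regulators of epithelial genes 1, the splicing factor Esrp2, was higher (2.16, adjusted p = 0.0104), and that call was lost without either MEF array.

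Bile duct markers were mixed. Sox9, a factor of bile ducts and of cartilage, read 5.82 and 6.01 in MEFs and 7.81, 7.58 and 7.96 in PH (1.87 ± 0.31, adjusted p = 0.00675), a call lost when either MEF array was left out. Krt19, a keratin of bile ducts, read 4.97 and 6.03 against 8.57, 8.29 and 6.32, and passed without PH 3 or with PH 1 and PH 2 averaged, but not as deposited. Prom1 did not pass, with MEF 2 (6.76) among the PH values, and Epcam, Krt7, Cldn7, Cftr and Muc1 did not pass, their differences lying between -0.10 and 0.53. The water channel Aqp1 was lower in PH, by 2.93. Their part in the epithelial values was not tested.

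Collagens and the enzymes that crosslink them were far below MEFs, with 20 of 27 lower, none higher and a median of -4.20. Without PH 3 the count was again 20. Col3a1, a fibrillar collagen of soft tissue, read 12.26 and 11.84 in MEFs and 6.74, 6.40 and 5.47 in PH, a difference of -5.85 ± 0.42 (adjusted p = 7.93e-05). Col1a1, the main chain of type I collagen, read 10.00 and 7.92 against 3.81, 3.98 and 3.95, and the collagen chaperone Serpinh1 read 11.85 and 11.72 against 7.99, 7.65 and 6.96. In each of these the lowest MEF array was above the highest PH array by more than 3. The lysyl oxidase Lox was higher in PH 3 (8.34) than in PH 1 and 2 (5.49 and 5.31), and lower than in MEFs (11.92 and 10.98) throughout. Of the hydroxylases, Plod3 (-1.63) and Plod2 (-2.35) passed and Plod1 did not.

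Matrix glycoproteins and proteoglycans were lower in 18 of 26, with none higher and a median of -3.69, and in 14 without PH 3. Mgp, which inhibits calcification, read 11.09 and 10.19 in MEFs and 3.69, 3.76 and 4.22 in PH, and periostin, Postn, read 11.96 and 10.65 against 5.55, 5.54 and 5.17. Fibronectin, Fn1, which hepatocytes also secrete into plasma, was bright in all 5 arrays (11.63 and 11.24 against 11.89, 11.91 and 12.23), and so was nidogen, Nid1, of basement membranes (10.98 and 11.19 against 11.21, 11.32 and 10.48). Neither passed. Low matrix signal in PH was thus not general. Matrix proteases and their inhibitors were lower in 11 of 19, and in 8 without PH 3, with Mmp2, a gelatinase, at 10.28 and 9.18 against 4.62, 4.61 and 4.96. Mmp3 and Mmp13 were much brighter in MEF 1 (11.45 and 10.29) than in MEF 2 (7.76 and 5.96), and their calls were lost without PH 3 (adjusted p = 0.0775 and 0.171).

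Surface, signalling and metabolic genes made up the other large negative differences. Cdh11, a cadherin of mesenchymal cells, read 11.22 and 10.80 in MEFs and 3.34, 3.39 and 3.70 in PH, the largest negative difference of all genes at -7.54 ± 0.32 (adjusted p = 7.08e-06). Ptgs2, the inducible enzyme of prostaglandin synthesis, read 10.37 and 10.55 against 3.44, 3.43 and 3.79. Crabp1, which binds retinoic acid, Thy1, a surface glycoprotein of fibroblasts, and the gap junction protein Gja1 differed by -6.90, -6.48 and -5.85. S100a4, a calcium-binding protein of motile cells, read 11.34 and 10.71 against 5.74, 5.57 and 4.46. Igf2, a fetal growth factor, read 11.37 and 11.93 against 4.59, 5.42 and 4.45. Ptx3, a soluble pattern receptor, differed by -5.88, but the other of its 2 probe sets gave 0.21. The remaining genes of the 15 were Mgp, Postn, Mmp3 and Col3a1, described with the matrix, and Gask1b (-5.90), Loxl1 (-5.81), a crosslinking enzyme, and Cthrc1 (-5.77), a secreted protein of collagen-making cells.

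The contractile cytoskeleton split into members that were lower and members at 1 level. In PH 8 of 20 were lower, none was higher and the median was -1.05, with 8 lower without PH 3, 4 without MEF 1 and 5 without MEF 2. Myl9, a light chain of smooth muscle myosin, read 10.24 and 9.26 in MEFs and 4.97, 4.76 and 5.40 in PH (-4.70 ± 0.39). Acta2, smooth muscle actin, read 12.12 and 11.90 against 9.53, 9.37 and 7.51, but its other probe set gave -0.30. Vimentin, Vim, the filament protein of mesenchymal cells, read 12.07 and 12.30 in MEFs and 11.95, 11.92 and 12.32 in PH. The actin-binding proteins Cald1 (11.70 and 11.62 against 11.62, 11.66 and 12.10) and Actn1 (10.47 and 10.65 against 10.49, 10.41 and 10.69) were also bright in both cell types, and none of these 3 passed. The hepatocyte arrays, in which collagen signal was low, thus lay within 0.4 of the fibroblast arrays for vimentin.

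Mesenchymal transcription factors were lower in 15 of 34 and higher in 1, Sox9, with a median of -1.12, and without PH 3 in 16 and 1. Twist2, a basic helix-loop-helix factor of mesenchyme, read 9.31 and 8.43 in MEFs and 3.58, 3.71 and 4.33 in PH (-5.00 ± 0.39, adjusted p = 0.000118), and Prrx1, a homeodomain factor of limb mesenchyme, read 9.35 and 9.49 against 4.32, 4.46 and 5.68. Snai2, a repressor of epithelial genes, was lower by 3.09. Its relatives in that role were not: Zeb2 read 6.46 and 6.19 against 6.38, 6.34 and 6.97, and Snai1 read 4.32 and 3.90 against 3.59, 3.36 and 3.94. Zeb1 read 8.64 and 8.26 against 7.41, 7.41 and 8.16 and passed without PH 3 but not as deposited.

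Hox genes, which record position along the body, were lower in PH in 2 of 9 of cluster A, none of 10 of cluster B, 1 of 6 of cluster C and 2 of 9 of cluster D. None was higher. Hoxa10 read 8.85 and 7.89 in MEFs against 4.53, 4.77 and 4.30, Hoxc8 read 7.71 and 7.16 against 3.48, 3.48 and 4.50, and Hoxd13, of the most distal limb and tail, read 6.60 and 6.30 against 3.35, 3.33 and 3.92. The others that passed were Hoxa5 (-2.46) and Hoxd10 (-1.36), the call of Hoxd10 being lost when any array other than PH 3 was left out. Another probe set of Hoxd13 gave a difference of 0.14. Hoxa3, of the front end of its cluster, read 6.63 and 5.82 in MEFs and 6.80, 6.71 and 5.12 in PH, and PH 1 and PH 2 were thus at or above the MEF arrays for it. Without PH 3 the counts were 3, 1, 2 and 3, and without either MEF array the count of cluster D was 1.

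Of 10 imprinted genes, which are expressed from the copy of a single parent and many of which act in fetal growth, 8 were lower in PH and none was higher, with a median of -3.62. The noncoding RNAs Rian and Meg3, of the same imprinted locus, read 10.23 and 10.25 in MEFs against 5.01, 4.96 and 4.95, and 10.92 and 9.95 against 5.74, 5.85 and 6.34. Other probe sets of Meg3 gave differences from -6.10 to -0.02. Plagl1, a zinc finger factor, was lower by 4.90, but its other probe set gave -0.27. Dlk1, a surface protein of fetal cells from the locus of Meg3, did not pass, with 5.13 in MEF 1, 8.37 in MEF 2 and 4.90, 4.92 and 5.07 in PH. The count was 7 without MEF 1, 5 without MEF 2 and 9 without PH 3.

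Ligands and receptors of growth factor signalling were distributed between the cell types. Of 29 ligands 7 were lower in PH and none was higher, against 8 and 1 without PH 3. Wnt5a, a noncanonical Wnt ligand, read 8.73 and 9.07 in MEFs and 3.77, 3.77 and 4.25 in PH (-4.97 ± 0.33), and the chemokine Cxcl12, the growth factors Tgfb3, Pdgfc and Vegfc the EGF receptor ligand Ereg and Igf2 were also lower. Of 29 receptors 4 were higher and 6 were lower, the former count being 6 without PH 3, 2 without MEF 1 and 1 without MEF 2. The HGF receptor Met read 5.74 and 6.58 against 8.79, 8.78 and 9.23 (2.77 ± 0.37), the EGF receptor Egfr read 8.35 and 7.84 against 10.05, 10.01 and 10.00, and Erbb3 and the transferrin receptor Tfr2 were the others that were higher. Lower were Pdgfrb, Fzd2, Tgfbr3, Fgfr1, Igf1r and Ror2, and Pdgfrb, a receptor of mesenchymal cells, read 8.17 and 7.03 against 4.02, 3.97 and 4.04. Other probe sets of Fgfr1 gave -0.85 and -1.56, those of Cxcl12 gave -2.87 and 0.22, and that of Tgfbr3 gave 0.29.

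In the insulin-like growth factor axis Igfbp1, a binding protein that the liver secretes, read 3.49 and 3.58 in MEFs and 9.28, 8.94 and 10.73 in PH (6.12 ± 0.51, adjusted p = 0.000152), while Igfbp2 and Igfbp6 were lower by 2.94 and 2.52. Igf1, the ligand that adult liver makes, read 6.15 and 6.38 against 7.64, 7.36 and 8.50 and passed without PH 3 but not as deposited (1.56, adjusted p = 0.0542). The called binding proteins thus differed in both directions.

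Chemokines and inflammatory genes depended on which MEF array they were set against. With both, Icam1, an adhesion molecule for leukocytes, was higher (6.91 and 5.82 against 9.12, 9.14 and 8.50) and 4 of 17 were lower, the chemokines Ccl5 and Ccl7 with Ptx3 and Ptgs2. Without PH 3 there were 1 higher and 3 lower, without MEF 1 there were 4 and 2, and without MEF 2 none was higher and 7 were lower. Il6 read 9.59 in MEF 1, 4.55 in MEF 2 and 3.38, 3.27 and 3.70 in PH, and Cxcl10, which interferon induces, read 11.43 and 6.81 against 4.44, 5.34 and 5.18. Of 9 interferon response genes 2 were lower, Oasl2 (-4.07) and Ifit3 (-3.52). None was lower without PH 3, 1 without MEF 1, 5 without MEF 2 and 5 with PH 1 and PH 2 averaged. The averaged fit gave little weight to disagreement between the MEF arrays, as described under the processing. Mx1, an antiviral GTPase, read 7.28 in MEF 1 and 3.09 in MEF 2, the latter beside the PH values of 3.07, 3.13 and 3.46.

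The MEF arrays differed from each other by at least 2, after subtraction of array medians, in 190 genes higher in MEF 1 and 47 higher in MEF 2. The largest differences towards MEF 1 were in Saa3 (8.33), Lcn2 (6.72), Steap4 (6.23), Hp (6.08), the chemokines Cxcl9 (5.93) and Ccl11 (5.72), and the interferon-inducible GTPase Iigp1 (5.71). Towards MEF 2 they were in Bex1 (-4.36), the lysosomal protease Ctss (-3.80), Fos (-3.62), Perp (-3.48), Apoe (-3.32) and Dlk1 (-3.25). Steap4, a metalloreductase, and Iigp1 read within 1.2 of MEF 1 in every PH array, and neither passed. Bex1, an adaptor protein of neural and regenerating tissue, read 9.70, 9.64 and 10.56 in PH and passed (4.12, adjusted p = 0.0486).

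**Figure D5:**
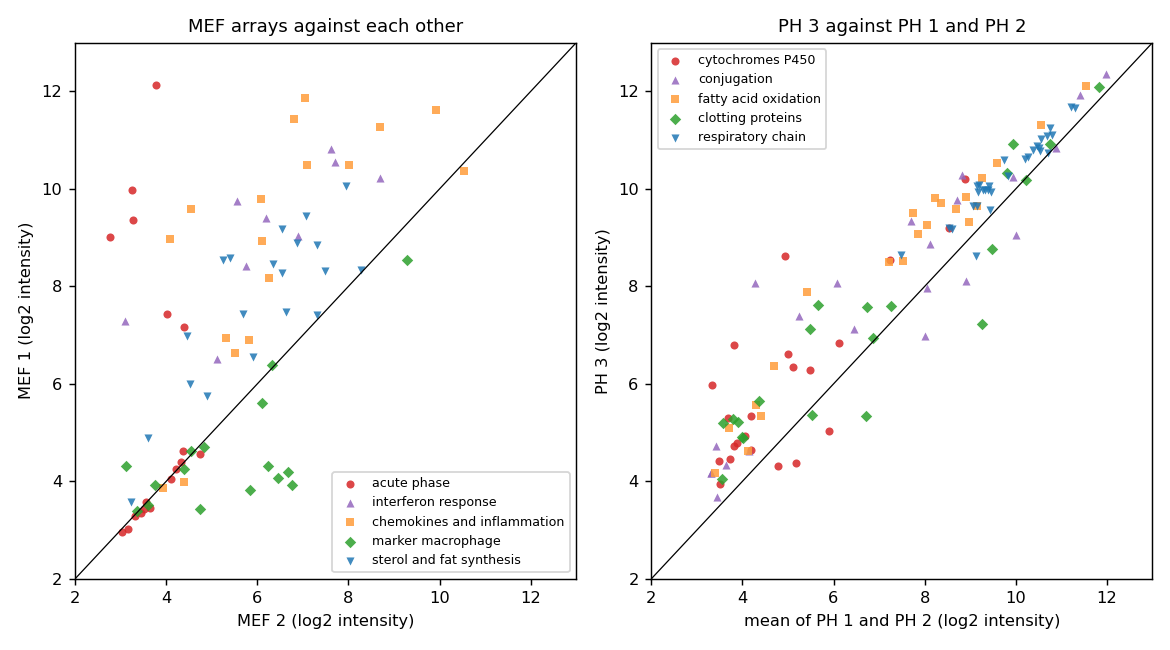
Log2 intensity of members of 5 gene lists in MEF 1 (vertical) against MEF 2 (horizontal), left, and of 5 other lists in PH 3 (vertical) against the mean of PH 1 and PH 2 (horizontal), right; the line marks equal values. On the left every sterol and fat synthesis gene and most interferon and chemokine genes lie above the line. Some acute phase genes do too, Saa3 the furthest (12.12 against 3.78), while others lie near the line. Several macrophage markers lie below it. On the right most points lie above the line, Sult1d1 and Cyp3a11 the furthest.

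Markers of other cell types were read in the same arrays. Of 16 macrophage markers 3 were lower in PH, Lyz2 (8.54 and 9.28 against 4.97, 4.26 and 4.97), Fcer1g and Adgre1, and C1qa, C1qb, C1qc, Tyrobp and Cd68 were higher in MEF 2 (5.84 to 6.77) than in MEF 1 (3.82 to 4.31). The Kupffer cell markers Clec4f, Vsig4 and Cd163 read between 3.50 and 4.13 in PH 1 and PH 2, and the mean over the macrophage list was 4.56 and 5.37 in the MEF arrays and 4.06, 3.91 and 4.63 in the PH arrays. Without MEF 2 only 1 of the 16 passed. None of 12 endothelial markers, 10 stellate cell markers, 7 blood markers and 10 skeletal muscle markers passed. Of 6 neural and glial markers Gap43, of growing axons, was lower in PH (6.70 and 8.35 against 3.36, 3.33 and 4.34). Col2a1, a collagen of cartilage, read 8.13 in MEF 2, 5.33 in MEF 1 and 3.69 to 4.46 in PH, and did not pass as deposited. In the cartilage list 1 of 9 passed as lower without MEF 1 and with PH 1 and PH 2 averaged. The part of such cells in the differences was not tested, and in bulk RNA fewer cells of a type and less RNA per cell cannot be told apart.

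Cell cycle genes were lower in PH in 2 of 28, Plk1 and Tpx2, with a median of -0.89, in 6 without PH 3, 8 after quantile normalization, 1 without MEF 1 and none without MEF 2. Mki67, a protein of dividing cells, read 8.35 and 9.04 in MEFs and 7.40, 7.82 and 8.57 in PH, and Ccnb2, a mitotic cyclin, read 7.78 and 7.63 against 6.73, 7.14 and 8.09. Neither passed. Both were above the nonspecific controls in every hepatocyte array.

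Genes of the secretory pathway, which both collagen and plasma protein production use, had a median of -0.50, and 1 of 27 was lower in PH, the retrieval receptor Kdelr3 (-2.01, adjusted p = 0.0267), and not without PH 3. The chaperone Hspa5 read 11.20 and 11.13 in MEFs and 10.79, 10.82 and 11.17 in PH, and Xbp1, a factor of the unfolded protein response, read 10.41 and 9.87 against 10.73, 10.79 and 11.26. Without PH 3 other members passed as lower, Ssr2 of the translocon and the disulfide isomerases Pdia4 and Pdia6, and after quantile normalization 5 did. For Xist, the RNA that silences an X chromosome in female cells, MEFs read 8.11 and 9.43 and the male hepatocytes 5.87, 5.82 and 6.50 (-2.71 ± 0.45, adjusted p = 0.00643), a call lost without MEF 2. The Y-linked Eif2s3y read 7.34 and 6.08 against 7.88, 7.92 and 8.85 and did not pass. The labels do not give the sex of the embryos.

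Differences among the hepatocyte arrays, after subtraction of array medians, reached at least 2 between PH 3 and the mean of the others in 34 genes higher and 78 lower in PH 3, and between PH 1 and PH 2 in 2 genes. The bright hybridization controls of PH 3 were raised less than its median, with a mean of 8.95 against 8.36 and 8.61 in PH 1 and PH 2. Subtracting the median can thus place bright genes lower in PH 3, which limits the reading of the balance of directions. Lower in PH 3 by the most were Ifi202b, an interferon-inducible DNA-binding protein (-5.29), the major urinary protein Mup3 (-3.79), the glutathione transferase Gsta2 (-3.71), the cadherin Cdh17 (-3.66), the casein Csn3 (-3.52), the signalling adaptor Pik3ap1 (-3.38), the drug efflux pump Abcb1b (-3.33) and the decoy receptor Tnfrsf22 (-3.21). Ifi202b read 7.76 and 8.53 in PH 1 and 2, 3.68 in PH 3 and 2.99 and 3.18 in MEFs. Of these 8 genes Gsta2, Pik3ap1 and Abcb1b passed between PH and MEF, and PH 3 read between the MEF arrays and the other PH arrays for each of them. The label of PH 3 gives the same strain, sex, age and isolation as those of PH 1 and PH 2.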

How the data were processed

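The authors deposited log2 expression values per probe set of an Affymetrix 3′ array, with RMA and Partek named in the submitters' processing notes and their versions not given in the sources used here. No column belongs to other samples (0). Of 45141 probe sets 104 are controls, 28898 name 1 gene, 551 several and 15588 none in the platform annotation. Among probe sets naming 1 gene, the brightest on average across the 8 arrays stood for that gene, which gave 17097 genes. PH and MEF were compared with limma 3.58.1 (lmFit, eBayes) in R 4.3.3 on 5 arrays, and p-values were adjusted by Benjamini-Hochberg over all genes. A call needed an adjusted p under 0.05 and a log2 difference of at least 1. The genes named first are the 15 largest differences in each direction among calls whose arrays do not overlap. Other genes come from 50 gene lists, which share some members. The lists hold 876 different genes, of which 777 were measured and the others were not analysed here. The members and lists were chosen with earlier results of these data known. Promoters were searched in RefSeq sequences (GRCm38.p6) by exact letters. The analysis was tested on simulated data. Figures used python 3.11.15, pandas 2.3.3 and matplotlib 3.10.9.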

Additional observations from a re-analysis of the deposited data

How the results depend on the processing

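As deposited, 622 genes were higher and 476 lower in PH. Array medians subtracted gave 770 lower, and quantile normalization without PH 3 gave 718 lower. An adjusted p under 0.01 left 326 and 292, and a difference of at least 2 left 384 higher. Leaving out 1 array gave 315 to 794 higher and 296 to 739 lower. No call turned its direction under any setting tried. Of 152 named calls, 18 were lost without PH 3, 24 without MEF 1 and 21 without MEF 2; the cause was not tested. The arrays share replicate numbers. Over genes, PH 1 minus PH 2 and MEF 1 minus MEF 2 had a correlation of -0.20. That value cannot decide whether the numbers pair the arrays. The sample numbers also fall in separate ranges, MEF 2 with PH 3 and MEF 1 with PH 1 and PH 2. The differences between the MEF arrays and between PH 3 and the other PH arrays fall along this split. What the ranges stand for was not tested. With the ranges as a block 866 genes were higher and 532 lower in PH. The replicate block gave 454 higher and 446 lower, with PH 3 left without a partner and so without weight in the difference, and 40 of the named calls were lost under it. The crossed pairing, chosen after seeing the data, gave 670 higher and 637 lower. With PH 1 and PH 2 averaged, adjusted p (limma) was 1.78e-59 for Fgb. It was 1.14e-06 for Serping1, whose MEF arrays read 9.22 and 4.71 and which did not pass as deposited. That fit thus gave little weight to disagreement between the MEF arrays within a gene. Passes under it, as in the interferon and cartilage lists and for Krt19, are therefore weak evidence. Arrays give no counts, so depth is unknown. MEF means lay below the nonspecific controls in 26 of the genes higher in PH, whose differences are then limited by background, and PH 1 and PH 2 did so in 16 of the genes lower in PH.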

Other observations

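Probe sets that name no gene or several were tested in a fit of their own. In it 263 probe sets were higher and 188 lower in PH, and they are not described further because they carry no single gene name.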
